A study of Mus musculus with 8 samples.

Results

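The genes described here are the Hairless corepressor (*Hr*), the vitamin D receptor (*Vdr*) and the receptors, corepressors and enzymes that work with them: *Rxra*, *Rxrb*, *Rora*, *Thra*, *Hdac3*, *Ncor1*, *Cyp27b1* and *Cyp24a1*. They were measured on oligonucleotide arrays in the back skin of hairless Hos:HR-1 females aged 21 weeks, which had been on their diet for 12 weeks, from the age of 9 weeks. Control mice ate the purified diet AIN-93G, and collagen mice ate the same diet with 2.0 g of a collagen hydrolysate (peptides made from fish scales) mixed into each 100 g. Each diet had 4 arrays, labelled as biological replicates, out of 8 mice per diet in the study, which lived 4 to a cage, and the labels do not tell which mice shared one. The probe sets were those whose annotation names exactly 1 gene symbol, and where a gene had several, the one highest on average over the 8 arrays stood for it as its main probe set. In this way 9 of the 10 genes were found among 18193 genes, and no probe set of the annotation used here named *Ncor1*, whose level was therefore not analysed here. The 9 genes have 24 probe sets in all.

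HR, the Hairless protein, does not bind hormone itself. It binds to nuclear receptors, among them VDR, ROR alpha and the thyroid hormone receptor, and recruits histone deacetylases that silence the genes to which these receptors are bound. In skin, loss of HR or of VDR lets the first coat of hair grow and then blocks its regrowth, and the follicles break down into cysts. Hairless laboratory strains of this kind are known to carry recessive variants of *Hr*. The labels give the strain but no allele, both diets share the strain, and no haired strain was measured, so what the strain does to these genes could not be compared. A probe set reads the amount of a transcript and does not tell a normal from a mutated one.

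These receptors read DNA through copies of a short hexamer, AGGTCA or a close variant such as GGTTCA or AGTTCA, and the spacing of paired copies decides which dimer can sit there. RefSeq promoter windows (build GRCm38.p6) were examined for 6 of the genes, *Rxra*, *Rxrb*, *Rora*, *Vdr*, *Cyp27b1* and *Ncor1*, with 9 starts in all, over the 250 bases before each start and on both strands. Any windows of the group on a certain chromosome were passed over, while the windows of all genes kept it. The 6 genes need therefore not be all that have a window. The windows below belong to the receptor itself and to its dimer partner, and capitals mark the hexamers. The *Vdr* window is on the minus strand at chr15:97908297-97908546, and the *Rxra* window, at the downstream of 2 listed starts, is on the plus strand at chr2:27709042-27709291.
Vdr: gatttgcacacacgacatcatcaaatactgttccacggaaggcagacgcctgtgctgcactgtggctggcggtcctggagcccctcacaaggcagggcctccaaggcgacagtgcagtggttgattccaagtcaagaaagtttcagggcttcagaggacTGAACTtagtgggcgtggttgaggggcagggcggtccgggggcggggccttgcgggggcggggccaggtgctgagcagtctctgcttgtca
Rxra: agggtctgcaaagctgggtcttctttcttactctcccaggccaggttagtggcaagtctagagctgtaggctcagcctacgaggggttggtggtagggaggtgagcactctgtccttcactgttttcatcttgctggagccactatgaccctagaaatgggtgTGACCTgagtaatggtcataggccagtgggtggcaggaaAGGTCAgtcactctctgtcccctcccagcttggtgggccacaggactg

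The *Rxra* window holds AGGTCA on each strand, beginning 87 and 48 bases before the start, and the *Vdr* window holds AGTTCA on the opposite strand, beginning 91 bases before it. At least 1 of the 3 hexamers was present in 3 of the 9 windows, against 30.7% of 32851 promoter windows of the same length. AGGTCA alone was present in 14% of all windows and GGTTCA in 8.85%. A direct repeat of the kind that VDR and RXR prefer, AGGTCA, then any 3 bases, then AGGTCA again, was found in 2 of the 32851 windows and in none of these 9. The *Vdr* window also holds 3 copies of GGGCGG, the GC box, which 32.7% of all windows hold and which overlaps none of the marked hexamers there. The arrays measured no binding, and these matches are descriptions of sequence.

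On the log2 scale of the files values ran from 5.34 to 14.27, and for a given probe set they were almost equal on all arrays, with an SD whose median was 8.66 millionths of a log2 unit. Values are therefore given as each array's deviation from the gene's mean over the 8 arrays, in millionths of a log2 unit, and such differences are no fold change of RNA. Differences between the diets are collagen minus control, also given in units of the gene's SD within diets (SD units). Levels of different genes were not set against each other, since each probe set has its own scale. Markers of keratinocytes were present, with 9 of 10 above the filter on low values, and so were those of the hair follicle (15 of 16) and of skeletal muscle (12 of 12). Control replicate 4 and collagen replicate 1 stood apart in the mean score of the muscle genes, at -1.37 and -1.35 against 0.21 to 0.87 in the other arrays. The same arrays were also lowest in their median over all probe sets. Their medians deviated by -220.3 and -210.8 millionths from the mean of the array medians, against -32.6 to 149.0 in the others. Leaving out these arrays therefore cannot tell muscle content from a feature of the whole array. In whole skin, fewer cells of a type and less RNA per cell cannot be told apart.

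In none of these genes did the difference between the diets pass the test. Of the 9 genes measured, 7 lay above the filter that left out the lowest 30% of genes by mean level, and *Cyp27b1* and *Cyp24a1* lay below it. With limma's moderated test, adjusted over all 12735 genes tested, 0 of the 7 had an adjusted p below 0.05, as did 0% of all genes tested. At an unadjusted p below 0.05 stood 1 of the 7, *Hdac3*, against 5.36% of all genes (4.15% lower and 1.21% higher on the collagen diet). The diets did not overlap in 1 of the 7, again *Hdac3*, against 3.31% of all genes, of which most were lower on the collagen diet (2.53% lower and 0.777% higher). Of the 7 genes 4 were lower and 3 higher. Their median was -0.23 SD units, against a median of -0.08 over all genes, 54.5% of which were lower. The number at an unadjusted p below 0.05 was 0 after quantile normalization and after median centring, and 3 without collagen replicate 4 (*Hdac3*, *Vdr* and *Rxrb*). It was 1 when any other single array was left out. Median centring subtracts 1 number per array, and those numbers spanned 369 millionths, more than any of the 9 main probe sets ranged. As deviations from their mean, the array medians were -210.8, 7.5, 149.0 and 100.7 in collagen replicates 1 to 4. In control replicates 1 to 4 they were 87.5, 119.1, -32.6 and -220.3, on average lower. Centring therefore lowered the difference of every gene by the same amount, and it also added spread within diets. A smaller value in SD units after it can come from either. Quantile normalization keeps only the rank of a value on its array and can remove differences this small. Of all genes, 65.6% were lower after quantile normalization and 86.5% after centring.

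**Figure D1:**
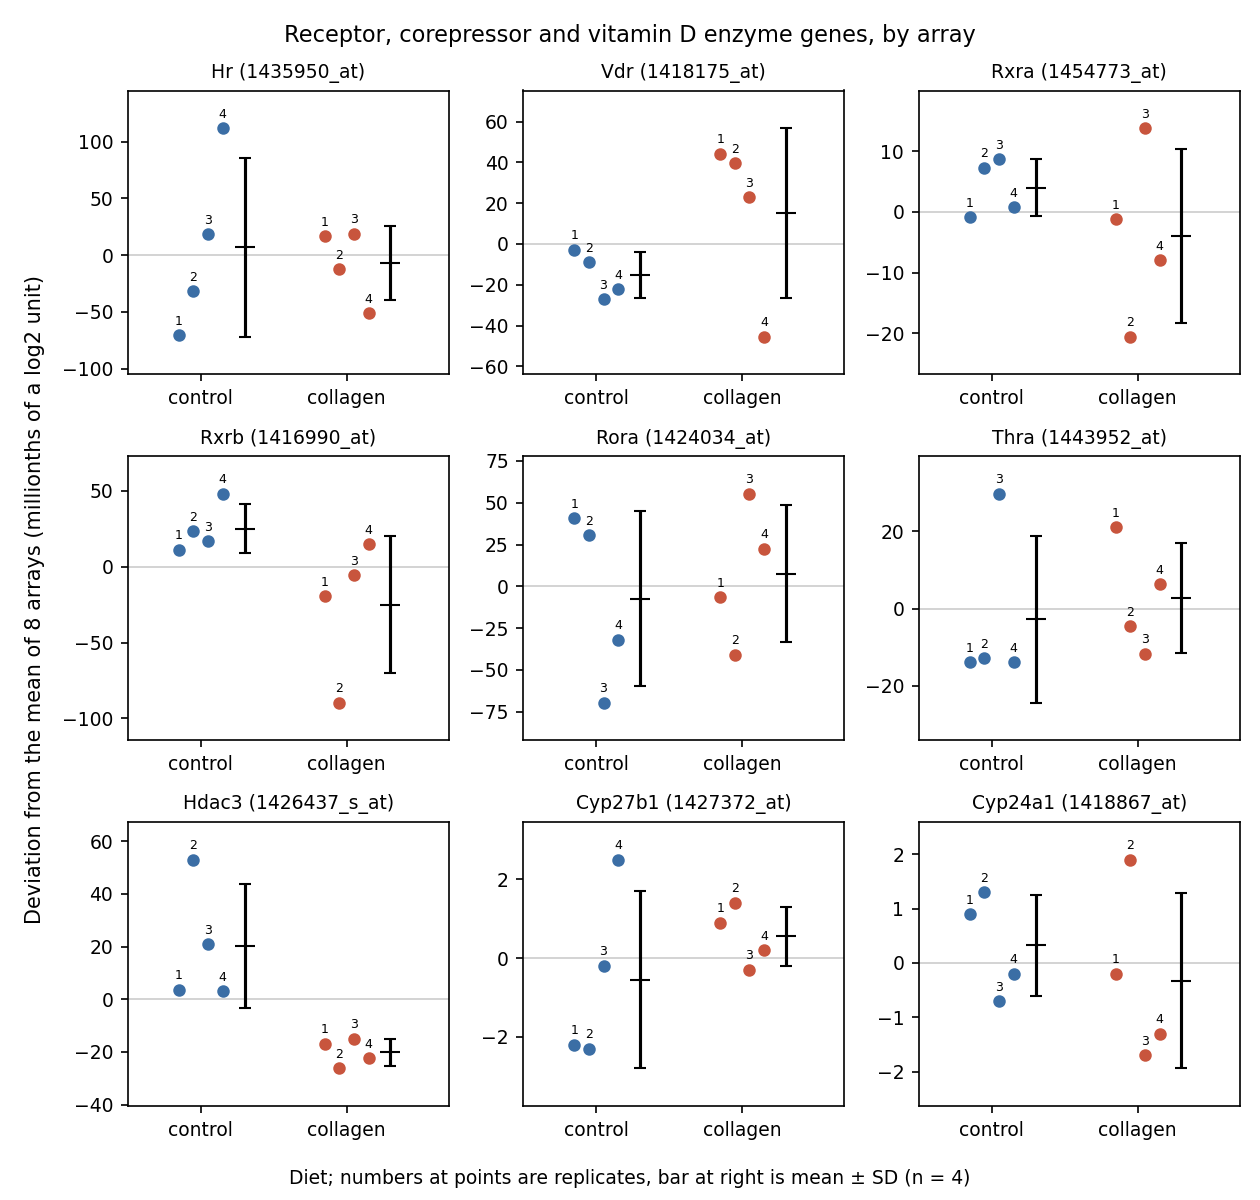
Deviation of each array from the gene's mean over 8 arrays, in millionths of a log2 unit, for the 9 genes measured, each on its own linear axis; blue points are control and red points collagen arrays, numbered by replicate, with mean ± SD (n = 4) at the right. All 4 collagen arrays lie below all 4 control arrays in *Hdac3*, and the diets overlap in the other 8 genes.

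*Hr* itself varied more between mice on the same diet than between the diets. Its main probe set (1435950_at, mean 7.88) deviated by -70.7, -31.9, 18.6 and 112.1 millionths in control replicates 1 to 4, and by 16.8, -12.4, 18.9 and -51.4 in collagen replicates 1 to 4. The highest and the lowest array were both on the control diet, and the collagen arrays lay between them. The group means were 7.0 ± 79 on the control and -7.0 ± 32.9 on the collagen diet (SD, n = 4), a difference of -14.0 ± 40.8 (SE), or -0.23 SD units (limma, adjusted p = 0.999). The 95% interval of the difference ran from -111.7 to 83.6 millionths, so changes of either sign of about the size of the spread between mice were not detectable with 4 arrays per diet. Without control replicate 4, the array highest for *Hr* and low in muscle genes, the difference was 0.55 SD units, and without both arrays low in muscle genes it was 0.32. The part of muscle in the level of *Hr* was not tested.

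A second probe set of *Hr* (1422110_at, mean 7.04) did not follow the first. It ranged over 12.7 millionths in all, against 183 for the main one, and differed between the diets by -0.08 SD units. Its highest array was collagen replicate 1 and its lowest collagen replicate 4. The SD of the main probe set over the 8 arrays, 56.5 millionths, was larger than that of 74.2% of the genes tested, where the median was 19.9.

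*Vdr*, the nuclear receptor that active vitamin D binds, was higher in 3 of the 4 collagen arrays than in any control array, but the fourth was the lowest of all. For its main probe set (1418175_at, mean 10.08) the control arrays stood at -2.9, -8.8, -27.1 and -22.3 millionths. The collagen arrays stood at 44.2, 39.5, 22.9 and -45.5. The control arrays were close together (-15.3 ± 11.3, SD, n = 4) and the collagen arrays far apart (15.3 ± 41.5). The difference of 30.6 ± 20.7 (SE), or 1.00 SD unit, did not pass (limma, adjusted p = 0.999, unadjusted p = 0.186). After quantile normalization it was 0.15 SD units and after median centring 0.04. Without collagen replicate 4 it was 4.51 SD units, with an unadjusted p of 0.00146 and an adjusted p of 0.481 in limma. With any other single array left out it was 0.70 to 1.06 SD units. The probe set ranged over 89.7 millionths, and the numbers that centring subtracts spanned 369, so the centred value cannot decide on this difference. Centring also lowered the difference itself, by the same amount as in every gene.

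The other *Vdr* probe set did not show this order. At 1418176_at (mean 9.92) the control arrays stood at -27.6, -14.8, 23.4 and 20.0 millionths and the collagen arrays at 40.2, -30.0, 10.5 and -21.7, a difference of -0.02 SD units. Both probe sets were highest in collagen replicate 1. Collagen replicate 2 was high in the main probe set and the lowest array in the other.

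**Figure D2:**
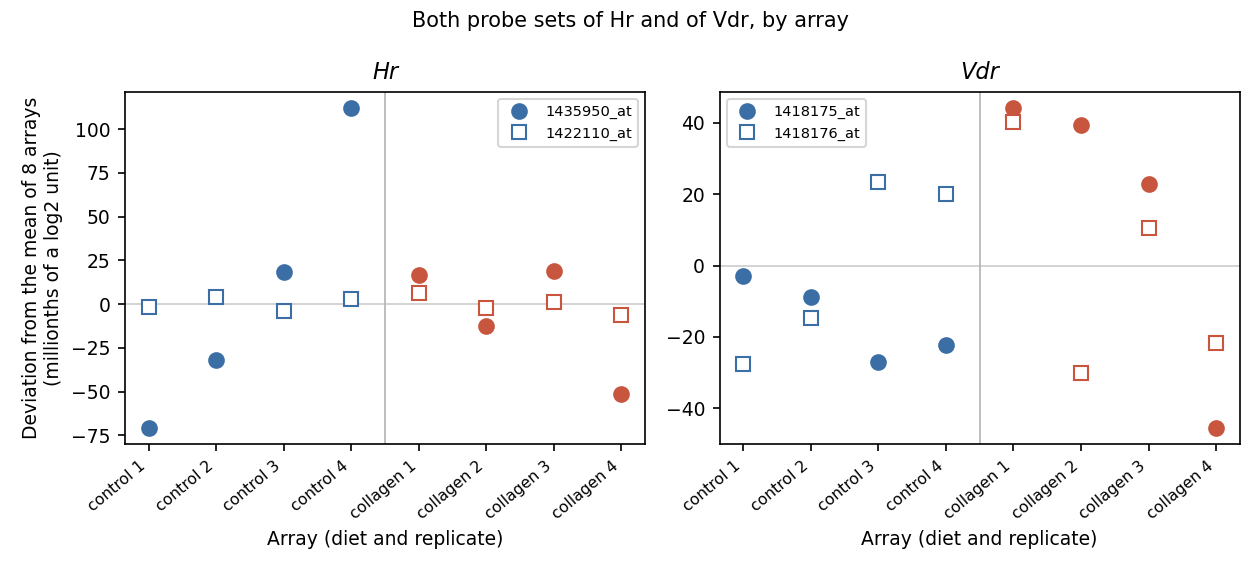
Both probe sets of *Hr* (left) and of *Vdr* (right), as deviation from each probe set's mean over 8 arrays in millionths of a log2 unit, against the array; filled circles are the main and open squares the second probe set, blue for control and red for collagen. The second *Hr* probe set ranges over 12.7 millionths against 183 for the main one, and collagen replicate 2 is high in 1 *Vdr* probe set and low in the other.

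*Rxra* and *Rxrb* encode retinoid X receptors, with which VDR and the thyroid hormone receptor form dimers on DNA. *Rxrb* (1416990_at, mean 8.41) stood at 11.3, 23.4, 17.0 and 48.1 millionths in the control arrays and at -19.6, -89.6, -5.6 and 14.9 in the collagen arrays. Collagen replicates 1 to 3 lay below all control arrays, and collagen replicate 4 lay above control replicate 1. The difference was -49.9 ± 23.1 (SE), or -1.47 SD units, and it did not pass (limma, adjusted p = 0.976, unadjusted p = 0.0695). Without collagen replicate 4 it was -2.03 SD units, with an unadjusted p of 0.0337 and an adjusted p of 0.794. With any other single array left out it was -1.70 to -1.19.

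*Rxra* (1454773_at, mean 9.56) stood at -0.9, 7.3, 8.7 and 0.8 millionths in the control arrays and at -1.2, -20.6, 13.8 and -8.0 in the collagen arrays. The highest and the lowest array were both on the collagen diet. The difference of -0.75 SD units did not pass (limma, adjusted p = 0.999). It was -1.92 without collagen replicate 3 and -0.84 to -0.30 with any other single array left out. The other *Rxra* probe sets went the opposite way, by 1.25 SD units at 1425762_a_at and 0.72 at 1430497_at.

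*Rora* encodes the orphan receptor ROR alpha, whose transcriptional activity HR represses, and it had the most probe sets of the group, 9. The main one (1424034_at, mean 10.55) stood at 40.6, 30.6, -69.5 and -31.9 millionths in the control arrays and at -6.5, -41.0, 55.3 and 22.4 in the collagen arrays. The control arrays covered most of the range of the collagen arrays. The difference was 15.1 ± 31.8 (SE), or 0.32 SD units, with a 95% interval of -60.9 to 91.2 (limma, adjusted p = 0.999), and it was -0.75 SD units after quantile normalization. Over the 9 probe sets 5 were higher and 4 lower on the collagen diet, from -1.39 to 0.57 SD units.

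Within the control diet the *Rora* probe sets shared an order. In 7 of the 9, control replicates 1 and 2 both lay above control replicates 3 and 4. The clearest was 1436326_at (mean 8.96), at 1140.6, 724.0, -422.3 and -770.3 millionths in control replicates 1 to 4, against 124.9, -574.3, -344.7 and 122.1 in the collagen arrays. Its SD over the 8 arrays was 663 millionths, compared with 44.3 for the main probe set. Probe sets of 1 gene share the same RNA and are not replicates of each other. The mean score of sebaceous gland markers also separated these arrays, at 1.60, 1.54, 0.22 and -0.33 in control replicates 1 to 4, and the keratinocyte markers stood at 0.61, 0.29, -0.66 and -0.73. Other markers split the same arrays in the opposite direction. Those of dermal fibroblasts stood at -0.87, -0.44, 0.83 and 0.14, of adipocytes at -1.24, -0.26, 0.51 and 0.53, and of immune cells at -0.32, -0.38, 0.32 and 0.76. The part of these cell types in the level of *Rora* was not tested.

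**Figure D3:**
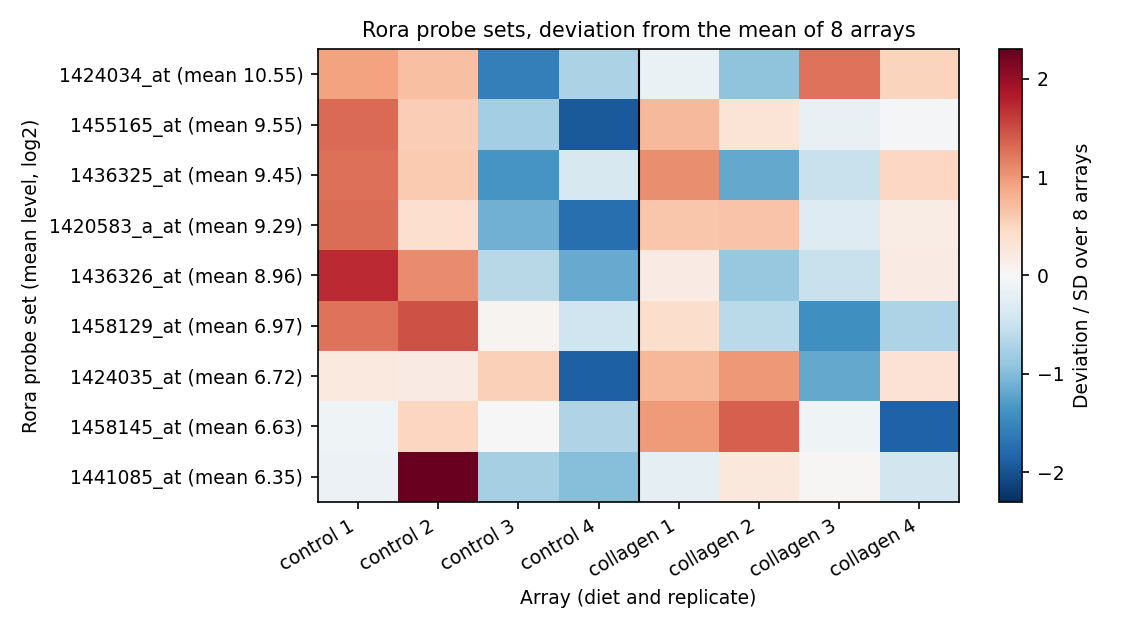
The 9 *Rora* probe sets (rows, with their mean log2 level) in the 8 arrays (columns), coloured by the deviation from the probe set's mean divided by its SD over the 8 arrays. Control replicates 1 and 2 lie above control replicates 3 and 4 in 7 of the 9, the main probe set among them.

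*Thra* encodes thyroid hormone receptor alpha, and in brain *Hr* is itself induced by thyroid hormone. The main *Thra* probe set (1443952_at, mean 8.34) stood at -13.9, -12.8, 29.7 and -13.9 millionths in the control arrays and at 21.0, -4.6, -11.7 and 6.3 in the collagen arrays. Control replicate 3 lay far above the other control arrays. The difference was 0.30 SD units (limma, adjusted p = 0.999). It was 1.47 without control replicate 3 and -0.04 to 0.55 with any other single array left out. The other probe sets differed by -1.60 SD units at 1454675_at, with an unadjusted p of 0.493 in limma's moderated test, and by -0.16 at 1426997_at.

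*Hdac3*, the histone deacetylase of the corepressor complexes that HR and the NCOR proteins recruit, was the gene of the group whose diets did not overlap. Its probe set (1426437_s_at, mean 9.51) stood at 3.6, 53.0, 20.9 and 3.0 millionths in the control arrays and at -16.9, -26.2, -15.0 and -22.4 in the collagen arrays. All 4 collagen arrays were lower than all 4 control arrays, and they were also closer together, with an SD of 5.11 against 23.4. The difference was -40.3 ± 11.8 (SE), or -2.37 SD units, with a 95% interval of -68.4 to -12.1. It ranked 199th by p among the 12735 genes and did not pass (limma, adjusted p = 0.779, unadjusted p = 0.0122). After quantile normalization it was 0.02 SD units and after median centring -0.42. It was -3.88 without control replicate 2 and -2.81 to -2.09 with any other single array left out. Its 8 arrays ranged over 79.2 millionths, while centring moved arrays by numbers spanning 369, so centring cannot decide on a difference of this size. In millionths the *Hdac3* difference became larger after centring, which lowers every gene's difference. Its value in SD units became smaller through the added spread within diets. Quantile normalization keeps only ranks and can remove it.

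The enzymes that make and remove active vitamin D were at low levels and almost flat. *Cyp27b1*, the 1-alpha-hydroxylase that makes the active hormone (1427372_at, mean 6.26), stood at -2.2, -2.3, -0.2 and 2.5 millionths in the control arrays and at 0.9, 1.4, -0.3 and 0.2 in the collagen arrays. *Cyp24a1*, the 24-hydroxylase that breaks the hormone down and a well-known target of VDR (1418867_at, mean 6.66), stood at 0.9, 1.3, -0.7 and -0.2 and at -0.2, 1.9, -1.7 and -1.3. The diets overlapped in both, and neither was tested as a gene. Their SD over the 8 arrays, 1.68 and 1.25 millionths, was larger than that of 3.64% and 2.29% of the genes tested. A second *Cyp24a1* probe set (1418866_at, mean 5.88) ranged over 5.08 millionths.

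In the same test run on all 31526 probe sets above the filter, 21 of the 24 probe sets of these genes were tested and 0 had an adjusted p below 0.05, as did 0% of all probe sets. At an unadjusted p below 0.05 stood 1, that of *Hdac3*, against 5.58% of all probe sets (4% lower and 1.57% higher). Of 15 further probe sets 5 went the same way as the main one of their gene, while over all genes tested this share was 57.6% of 14723 further probe sets. The 15 include 1 of *Cyp24a1*, a gene below the filter, and the 14723 include none of such genes. Some of the opposite differences were very small, such as -0.5 millionths at 1418176_at of *Vdr* and -1.6 at 1426997_at of *Thra*. For *Vdr*, *Rxra*, *Rora*, *Thra* and *Cyp24a1*, 5 of the 6 genes with further probe sets, the probe sets of a gene gave different directions, so the direction of the main one is a value of that probe set.

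Across the mice, no relation between the level of *Hr* or *Vdr* and that of another gene of the group passed after adjustment in the values as deposited. After median centring all 10 passed, and after quantile normalization 6 did, with adjusted exact permutation p from 0.00215 to 0.00454 and from 0.0119 to 0.0417. Pearson's r and Spearman's rho over the 8 arrays, with exact two-sided permutation p-values, were computed for *Hr* with each of the other 8 genes and for *Vdr* with *Rxra* and *Cyp24a1*, 10 relations in all. The smallest p belonged to *Hr* and *Cyp27b1*, with r = 0.74 (exact permutation p = 0.0343, adjusted p = 0.343) and rho = 0.48 (exact permutation p = 0.243, adjusted p = 0.817). Without control replicates 1 and 4, the arrays farthest from the median of *Hr*, r fell to 0.25. Leaving out the ends of the range of *Hr* can by itself lower r, so this value cannot decide what the relation rests on. Single arrays left out, chosen after seeing the data, gave r of 0.53 (without control replicate 4) to 0.82. With each array taken as its deviation from the mean of its diet r was 0.85 (permutation p = 0.0104, adjusted p = 0.104). That p comes from permuting all 8 arrays freely and is not exact, since deviations from a diet's mean depend on each other. *Cyp27b1* lay below the filter and varied with an SD of only 1.68 millionths. Within a diet 4 arrays are too few for a value.

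*Hr* and *Vdr* gave r = 0.04 and rho = 0.07 (exact permutation p = 0.933 and 0.882, adjusted p = 0.939 and 0.977), and r = 0.54 without control replicates 1 and 4. *Vdr* and its partner *Rxra* gave r = -0.20 and rho = -0.19 (exact permutation p = 0.640 and 0.665, adjusted p = 0.915 and 0.879), and r = 0.73 without collagen replicates 1 and 2. *Vdr* and its target *Cyp24a1* gave r = 0.33 and rho = 0.43 (exact permutation p = 0.418 and 0.299, adjusted p = 0.915 and 0.817), and r = 0.03 without the same 2 arrays. For *Hr* with *Rxra*, *Rxrb*, *Rora*, *Thra*, *Hdac3* and *Cyp24a1*, r ran from -0.48 (*Rora*) to 0.25 (*Rxrb*), with exact permutation p from 0.232 to 0.939 and adjusted p of 0.915 and 0.939. The 10 relations had r of 0.93 or more after median centring. After quantile normalization *Hr* had r of 0.90 with *Vdr* and of 0.23 with *Cyp27b1*. Centring subtracts 1 number per array from every gene, and those numbers spanned 369 millionths, more than the range of the main probe set of any of the 9 genes.

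Of the 12734 other genes tested, those most like *Hr* over the 8 arrays by Pearson's r were *St6galnac3* (1440121_at, 0.994), a sialyltransferase, *Flt4* (1444052_at, 0.973), the receptor VEGFR3 of lymphatic vessels, and *Boc* (1427516_a_at, 0.961), a co-receptor for hedgehog ligands. For *Vdr* they were *2310069B03Rik* (1431599_at, 0.987), *Gm1070* (1438867_at, 0.964) and *Cmtm5* (1429798_s_at, 0.961). An r above 0.9 was reached by 38 genes with *Hr* and by 39 with *Vdr*. These are the highest of many values over 8 arrays and are given as a description.

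Other genes of these pathways were set beside the group in 8 lists of 87 genes, 64 of which were tested. In limma 0 of the 64 had an adjusted p below 0.05. At an unadjusted p below 0.05 stood 4 (6.25%, against 5.36% of all genes), all lower on the collagen diet, and the diets did not overlap in 3 (4.69%, against 3.31%), also all lower. Both shares were near those of all genes. In all 39 were lower and 25 higher, and the median was -0.17 SD units.

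Among relatives of the receptors, 6 genes were lower and 4 higher (median -0.25 SD units). *Pparg*, the RXR partner that drives fat cell and sebocyte differentiation (1420715_a_at), stood at 114.9, 167.6, 43.6 and 29.5 millionths in the control arrays and at -0.2, -115.1, -164.0 and -76.3 in the collagen arrays. The diets did not overlap, and the difference was -2.66 SD units (limma, adjusted p = 0.698), or -0.37 after quantile normalization. Sebaceous gland markers (5 of 8 on the array, all 5 above the filter) scored -0.19, -0.95, -1.16 and -0.74 in the collagen arrays, against -0.33 to 1.60 in the control arrays. Adipocyte markers scored 0.70, 0.53, -0.28 and -0.49 in the collagen arrays, against -1.24, -0.26, 0.51 and 0.53 in the control arrays. The part of either cell type in the level of *Pparg* was not tested. *Nr1d2*, a receptor of the circadian clock (1416958_at), differed by 1.15 SD units (limma, adjusted p = 0.999), by -0.52 after quantile normalization, and by 2.76 without control replicate 2 (adjusted p = 0.890). With any other single array left out it differed by 0.84 to 1.22.

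In the corepressor complex and among the lysine demethylase relatives of HR 11 genes were lower and 3 higher (median -0.47 SD units), with 0 at an adjusted p below 0.05 and 1 at an unadjusted p below 0.05. That gene was *Kdm1a*, a histone demethylase of corepressor complexes (1426762_s_at), at 18.1, 40.8, 14.7 and 23.2 millionths in the control arrays and 6.0, -8.4, -60.0 and -34.4 in the collagen arrays. The diets did not overlap, and the difference was -2.18 SD units (limma, adjusted p = 0.820), or -0.36 after quantile normalization. *Sin3b*, a scaffold of histone deacetylase complexes (1424355_a_at), differed by -1.23 SD units, and by -2.58 without collagen replicate 2 (limma, unadjusted p = 0.0165, adjusted p = 0.999). With any other single array left out it differed by -1.68 to -0.92. The median of the list was -0.17 after median centring and -0.85 with the mean of all probe sets. The coactivators of VDR lay close to no difference, from -0.44 to 0.59 SD units over 9 genes (median 0.10, and -0.33 after quantile normalization), led by *Ep300* (1434765_at, 0.59) and *Ncoa1* (1434515_at, -0.44).

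Genes of vitamin D synthesis and transport were lower in 4 of 5 (median -1.17 SD units, but -0.40 after quantile normalization, -0.22 after median centring and -0.72 with the mean of all probe sets), with 0 at an unadjusted p below 0.05. They were led by *Cyp27a1*, a vitamin D 25-hydroxylase (1417590_at, -1.32), and *Dhcr7*, which turns the vitamin D precursor of the skin into cholesterol (1448619_at, -1.20), both with an adjusted p of 0.999 in limma. *Cyp27a1* was at -3.48 without control replicate 1 (unadjusted p = 0.00368, adjusted p = 0.625) and at 0.03 after quantile normalization. It was at -1.58 to -1.04 with any other single array left out. *Dhcr7* was at -2.36 without collagen replicate 1 (unadjusted p = 0.0186, adjusted p = 0.872) and at -0.40 after quantile normalization. It was at -1.58 to -0.89 with any other single array left out. Of 8 reported target genes of VDR 5 were lower and 3 higher (median -0.14, and 0.11 without the 2 arrays low in muscle genes). *Cdkn1a*, the cell cycle inhibitor p21 (1424638_at), stood at 37.7, 46.5, 21.0 and 123.8 millionths in the control arrays and at -13.9, -90.8, -39.6 and -84.7 in the collagen arrays. All collagen arrays were below all control arrays, at -2.76 SD units (limma, adjusted p = 0.668), while the mean of all its probe sets differed by -1.29 and its group means were equal after quantile normalization. *Klk13* (1456539_at), a kallikrein protease, differed by 1.06 SD units, and by 0.12 after median centring.

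Genes reported to be repressed by HR, with readouts of the Wnt pathway, were higher in 6 of 8 (median 0.29 SD units, but -0.17 after quantile normalization and -0.13 after median centring), with 0 at an unadjusted p below 0.05. Over all genes the share lower was 54.5% as deposited, and 65.6% and 86.5% under these scalings. The turn of this median to lower is therefore not particular to the list. *Dlx3*, a homeobox gene of the follicle (1450475_at), differed by 1.50 SD units (limma, unadjusted p = 0.0663, adjusted p = 0.968), by -0.06 and -0.03 under the same scalings, and by 2.64 with the mean of all its probe sets (unadjusted p = 0.00792, adjusted p = 0.661). Without collagen replicate 4 its unadjusted p in limma was 0.0460, and with any other single array left out 0.0603 to 0.146. *Sostdc1*, the Wnt inhibitor Wise that HR is known to repress (1449340_at), went the other way at -1.21 (adjusted p = 0.999). It stood at 38.5, 97.0, -26.5 and -3.3 millionths in the control arrays and at 9.6, -23.1, -63.3 and -28.9 in the collagen arrays, with the diets overlapping. The hair follicle markers scored -1.01 to -0.16 in the control arrays and 0.15 to 1.02 in the collagen arrays, and their part in these values was not tested.

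Thyroid hormone genes had 3 lower and 2 higher (median -0.02 SD units, and 0.25 with the mean of all probe sets), with *Thrsp* (1424737_at) at 0.69 and *Klf9* (1456341_a_at) at 0.62. Leaving out single arrays gave 0.32 to 2.00 for *Thrsp*, the highest without control replicate 3 (limma, unadjusted p = 0.0344, adjusted p = 0.928), and 0.27 to 1.08 for *Klf9*. ROR targets were lower in 4 of 5 (median -1.13, but -0.24 after quantile normalization, -0.38 after median centring and -0.56 without the 2 arrays low in muscle genes), led by *Elovl3*, a fatty acid elongase of sebaceous glands (1420722_at), at -2.35 (limma, unadjusted p = 0.0112, adjusted p = 0.777), which is also a sebaceous gland marker here. *Elovl3* stood at 472.2, 539.6, 342.6 and 130.3 millionths in the control arrays and at -221.1, -668.7, -733.7 and 138.8 in the collagen arrays. Collagen replicate 4 lay just above control replicate 4, so the diets overlapped. Without collagen replicate 4 the difference was -4.05 SD units, and with any other single array left out -2.54 to -2.05. *Sqle*, squalene epoxidase (1415993_at), differed by -1.14.

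**Figure D4:**
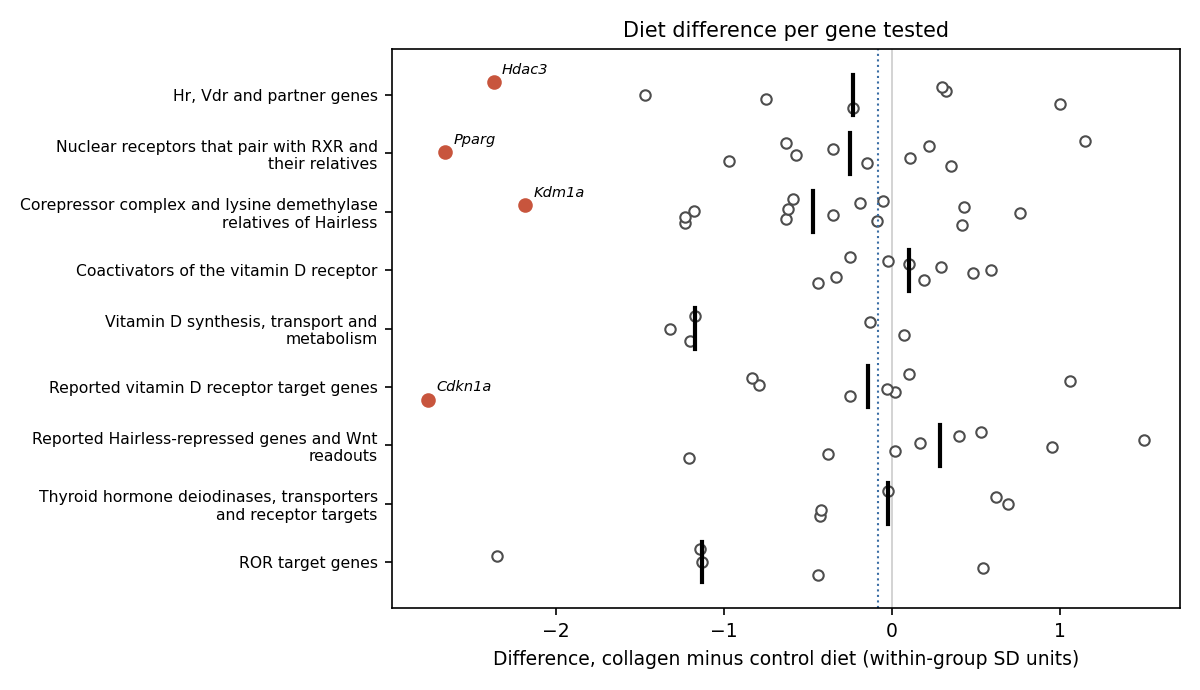
Difference between the diets for each gene tested, collagen minus control in within-diet SD units, for the 7 genes of the group (top row) and the 8 lists; black bars are medians, the dotted line is the median of all genes tested (-0.08) and filled red points are genes whose diets did not overlap. The 4 filled points, *Hdac3*, *Pparg*, *Kdm1a* and *Cdkn1a*, all lie on the lower side, and none passed the adjusted test. After quantile normalization *Hdac3* stood at 0.02 and *Cdkn1a* had equal group means, but that scaling keeps only ranks and can remove differences this small.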

How the data were processed

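Frozen dorsal skin was powdered and its RNA labelled with a 3' amplification kit for oligonucleotide arrays, per the labels' protocols. The authors deposited log2 values, 1 per probe set and array. R 2.7.2 is named in the submitters' processing notes. For the summarization of probes and the normalization of arrays, nothing is stated in the sources used. Of 45101 probe sets 64 were controls. In the platform's annotation, perhaps outdated, 34945 name 1 gene symbol, 932 several and 9160 none.

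Values were used as deposited. The 30% of genes with the lowest mean were dropped, and 12735 stayed. For the comparison of diets limma 3.58.1 was run in R 4.3.3 (lmFit and trended eBayes, 6 residual and 0.613 prior degrees of freedom, two-sided, Benjamini-Hochberg adjustment), and the fit was tested on simulated data. The text names all members, the 2 genes of smallest p in each pathway list, and the 3 genes most correlated with *Hr* and with *Vdr*. Alternatives were other filters, quantile normalization, median centring, the mean of a gene's probe sets, no trend, a replicate block and leaving out arrays. Members and lists were chosen with earlier results of these data known. Same-numbered arrays of the 2 diets correlated by 0, -0.02, 0.18 and -0.07 in their deviations over genes, so the numbers were not taken as pairs. Identical values made up at most 0.0177% of any pair of arrays. The number of arrays limits the precision, and no signal over background was used.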

Additional observations from a re-analysis of the deposited data

Results flagged for a closer look

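In *Thra*, control replicate 3 lay far from the other control arrays, at 29.7 millionths against -13.9 to -12.8, and the gap made up 0.975 of the range of the 4 arrays, above Dixon's 95% critical value for a group of that size. This was 1 of 18 groups of 4 examined, and chance alone marks about 1 in 20 such groups.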

How the results depend on the processing

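The counts of members and of list genes with an adjusted p below 0.05 were 0 under every alternative run. Over all genes that count was 0 and became 1 with the lowest 50% left out, after quantile normalization and at an adjusted p below 0.10, and ran from 0 to 1 when single arrays were left out (1 without control replicate 1). With the replicate number as a block (replicate block), 1 member and 665 of all genes stood at an unadjusted p below 0.05, against 1 and 682, and list genes numbered 6 against 4. With the block *Sin3b* stood at -2.54 SD units (limma, unadjusted p = 0.0334, adjusted p = 0.901) and *Klk13* at 2.17 (unadjusted p = 0.0342, adjusted p = 0.909), and no adjusted p of a member or list gene fell below 0.05. After quantile normalization and median centring, these counts were 0 and 0 for members, 67 and 78 for all genes, and 0 and 1 for list genes, which numbered 7 with the mean of all probe sets. Leaving out single arrays gave 1 to 3 members.

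Directions turned in these cases, given in SD units. After quantile normalization *Rxra* stood at 0.16, *Rxrb* at 0.27, *Rora* at -0.75, *Hdac3* at 0.02, *Cyp27a1* at 0.03, *Dlx3* at -0.06, *Ep300* at -0.14 and *Nr1d2* at -0.52, while *Thra*, *Cdkn1a*, *Klf9* and *Sin3b* had equal group means. After median centring *Rora* stood at -0.06, *Thra* at -0.11, *Dlx3* at -0.03 and *Ep300* at -0.0032. Of all genes, 54.5% were lower as deposited, 65.6% after quantile normalization and 86.5% after median centring. A turn to lower under these scalings is therefore not particular to these genes. Centring lowered the difference of every gene by the same amount, since the array medians were on average higher on the collagen diet. A turn to lower after centring comes from that shift alone. With the mean of all probe sets *Rxra* stood at 0.59 and *Rora* at -0.48, and without the 2 arrays low in muscle genes *Hr* at 0.32 and *Thra* at -0.23. Leaving out single arrays gave -0.76 to 0.55 for *Hr*, -0.14 to 0.70 for *Rora*, -0.04 to 1.47 for *Thra* and -1.59 to 0.08 for *Ncoa1*. The medians of 4 lists also changed sign when single arrays were left out: receptor relatives (-0.71 to 0.03), coactivators (-0.16 to 0.25), VDR targets (-0.58 to 0.10) and thyroid hormone genes (-0.25 to 0.29).

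Under both scalings the correlations turned positive or rose, except that of *Hr* with *Cyp27b1*, which was 0.23 after quantile normalization against 0.74. After median centring *Hr* had r of 0.95 with *Vdr*, 0.98 with *Rxra*, 0.96 with *Rxrb*, 0.93 with *Rora*, 0.97 with *Thra*, 0.97 with *Hdac3*, 0.98 with *Cyp27b1* and 0.98 with *Cyp24a1*, and *Vdr* had 0.97 with *Rxra* and 0.98 with *Cyp24a1*. After quantile normalization *Hr* had 0.90 with *Vdr*, 0.86 with *Rxra*, 0.86 with *Rxrb*, 0.72 with *Rora*, 0.94 with *Thra*, 0.93 with *Hdac3* and 0.63 with *Cyp24a1*, and *Vdr* had 0.82 with *Rxra* and 0.56 with *Cyp24a1*. Leaving out single arrays, chosen after seeing the data, gave -0.22 to 0.45 for *Hr* with *Vdr*, -0.24 to 0.36 with *Rxrb*, -0.16 to 0.53 with *Thra*, -0.18 to 0.27 with *Hdac3*, and -0.47 to 0.32 for *Vdr* with *Rxra*.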
